A study of Mus musculus with 16 samples.

Results

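Metallothioneins and the genes that move and sense zinc were followed in RNA of tibialis anterior muscle from male mice at 7 weeks of age. The 6 genes described are Mt1, Mt2, Slc30a1, Slc30a2, Slc39a14 and Mtf1, of 29730 genes in the count table. They were taken by their symbols through the GENCODE annotation of GRCm38, and all 6 were in the table and passed the filter on low counts that left 14960 genes. They were chosen by symbol with earlier results of these data known, in which log2 fold changes (log2FCs) had set Mt2 apart between KO_PBS and WT_PBS and Mt1 and Mt2 apart between WT_ASO and WT_PBS, so their levels and fold changes are given as a description and without P values. Where the fit over all genes called any of them, that is given as a count beside the share of all genes called, and is no test of the choice. Of the other metallothionein and zinc transporter genes, 21 were in the table and 17 were tested.

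The series asked how lowering Dnm2 with the antisense oligonucleotide ASO1 alters the transcriptome of Bin1mck-/- mice, in which Bin1 is deleted; mck is the usual short form for muscle creatine kinase, whose promoter is active in muscle fibres. Such oligonucleotides are made to bind 1 transcript and cause its loss, and recessive BIN1 mutations cause centronuclear myopathy in people. Male mice, all labelled C57BL/6N and aged 7 weeks, fell into 4 groups of 4: WT given PBS (WT_PBS), WT given ASO1 (WT_ASO), Bin1mck-/- given PBS (KO_PBS) and Bin1mck-/- given ASO1 (KO_ASO). The labels name the deletion no further than this, do not give the dose and schedule of ASO1, and list no other difference between the groups.

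Metallothioneins are small proteins rich in cysteine that bind zinc and copper and hold the free metal at a low level. When free zinc rises, the factor encoded by Mtf1 binds metal response elements, short motifs near the start of its target genes, and raises transcription of Mt1, Mt2 and the zinc exporter gene Slc30a1. Metallothionein genes are also raised by glucocorticoids, by cytokines that act through Stat3 and by oxidative stress, and in skeletal muscle they are known to rise in states of wasting. Transporters of the Slc30 (ZnT) family carry zinc out of the cytosol, and those of the Slc39 (ZIP) family carry it in.

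Mt4, Mt3, Mt2 and Mt1 lie in this order within 43.1 kb of chromosome 8 (94137197 to 94180327, GRCm38), all on the plus strand. The 250 bases before the RefSeq start (GRCm38.p6) are shown for the 3 metallothionein genes that were tested and for Slc30a1, since Mt1, Mt2 and Mt3 are the genes whose levels are set side by side and Slc30a1 is the transporter most closely tied to the same motif. Capitals mark the core of the metal response element, TGCACNC or TGCGCNC, found on either strand; the 2 forms cannot match at the same bases of 1 strand.
Mt1, chr8:94178839-94179088, plus strand: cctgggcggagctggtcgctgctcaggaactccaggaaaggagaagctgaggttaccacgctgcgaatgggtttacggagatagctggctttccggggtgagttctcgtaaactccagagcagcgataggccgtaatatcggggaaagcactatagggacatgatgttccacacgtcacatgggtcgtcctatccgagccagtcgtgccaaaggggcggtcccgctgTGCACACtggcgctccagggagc
Mt2, chr8:94172368-94172617, plus strand: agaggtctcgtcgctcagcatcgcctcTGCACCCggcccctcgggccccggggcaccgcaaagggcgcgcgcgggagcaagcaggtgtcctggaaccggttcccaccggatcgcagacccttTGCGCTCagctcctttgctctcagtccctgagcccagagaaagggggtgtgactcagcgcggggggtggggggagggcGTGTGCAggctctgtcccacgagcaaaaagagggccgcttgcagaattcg
Mt3, chr8:94152357-94152606, plus strand: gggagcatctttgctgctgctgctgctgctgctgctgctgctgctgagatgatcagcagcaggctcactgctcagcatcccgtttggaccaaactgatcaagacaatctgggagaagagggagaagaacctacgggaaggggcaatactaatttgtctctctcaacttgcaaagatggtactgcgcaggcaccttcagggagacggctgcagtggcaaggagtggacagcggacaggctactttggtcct
Slc30a1, chr1:191906531-191906780, plus strand: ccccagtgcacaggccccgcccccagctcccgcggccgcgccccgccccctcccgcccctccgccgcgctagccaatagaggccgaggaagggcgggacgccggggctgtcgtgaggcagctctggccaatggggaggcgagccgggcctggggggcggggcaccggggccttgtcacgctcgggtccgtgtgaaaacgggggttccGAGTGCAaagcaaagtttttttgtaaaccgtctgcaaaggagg
These windows held 1 match for Mt1, 3 for Mt2, 0 for Mt3 and 1 for Slc30a1. The same window held 2 matches for Slc30a2 and 0 for Mtf1. Of 32851 promoters of this length, 21.4% held at least 1 match and 1.26% at least 3. TGCACNC was in 10.4% of them and TGCGCNC in 12.5%. Of the 6 genes 5 had an entry in the promoter table, and Slc39a14 is named only.

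The annotated starts of Mt1, Mt2 and Mt3 lie some way before the start codon, so the 250 bases before the start codon were searched too. This was done for 10294 genes whose promoter window could be joined to their first exon. Mt1 held 5 matches there, Mt2 held 4, Mt3 held 3 and Slc30a1 held 1. At least 1 match was present in 26.5% of these genes, at least 3 in 1.72%, at least 4 in 0.447% and at least 5 in 0.0874%. The 2 windows overlap, and the match in the Mt1 promoter is also the first of the 5. A stretch of 25 bases held 2 of the 5 Mt1 matches and lies in the first exon, 220 to 196 bases before the codon.
Mt1, chr8:94179091-94179115, plus strand: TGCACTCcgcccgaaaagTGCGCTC
A match is a description of the letters and shows no binding.

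Total counts per sample ran from 27591900 to 40862854, and correlations of log2 CPM (a gene's count relative to the scaled total of its library, in the usual CPM unit) between samples of a group from 0.974 to 0.988. Bin1 measured 463 to 554 CPM in WT_PBS, 479 to 620 in WT_ASO, 40.8 to 47.7 in KO_PBS and 31.7 to 42.9 in KO_ASO. Dnm2 measured 50.2 to 62.8 CPM in WT_PBS, 23.1 to 29.4 in WT_ASO, 59.1 to 67.7 in KO_PBS and 20.7 to 31.1 in KO_ASO, so both genes followed the labels in every sample. Summed CPM of 10 genes of fast muscle fibres, which define this muscle, was 197614 to 247047 in WT_PBS, 208014 to 290706 in WT_ASO, 154292 to 178387 in KO_PBS and 174284 to 198657 in KO_ASO, so KO_PBS lay wholly below WT_PBS. The labels do not say that samples came from separate mice, and P values measure the spread between the samples as labelled.

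Mt1 and Mt2, the widely expressed metallothioneins, were both higher in every KO_PBS sample than in any WT_PBS sample. Mt1 (ENSMUSG00000031765, chromosome 8, 94179082 to 94180327) measured 12.0, 8.12, 13.0 and 12.4 CPM in the WT_PBS samples and 39.4, 42.0, 28.5 and 47.0 CPM in the KO_PBS samples. The lowest KO_PBS value stood above the highest WT_PBS value, and the means were 39.2 ± 7.82 and 11.4 ± 2.21 CPM (SD, n = 4 each). This was a log2FC of 1.78 (SE 0.33), or 3.43-fold.

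Mt2 (ENSMUSG00000031762, chromosome 8, 94172664 to 94173568) measured 6.23, 5.51, 5.06 and 8.45 CPM in the WT_PBS samples and 53.5, 47.3, 29.1 and 68.8 CPM in the KO_PBS samples. The groups did not overlap, with means of 49.7 ± 16.4 and 6.31 ± 1.504 CPM (SD, n = 4 each). The log2FC was 2.97 (SE 0.44), or 7.85-fold, the widest difference among the 6 genes in any comparison of 2 groups.

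Slc39a14 encodes a ZIP importer of zinc that also carries iron and manganese and is known to rise in inflammation. Slc39a14 (ENSMUSG00000022094, chromosome 14, 70303469 to 70351425, minus strand) measured 19.4, 20.2, 18.1 and 17.5 CPM in the WT_PBS samples and 34.6, 24.5, 24.4 and 29.8 CPM in the KO_PBS samples. All KO_PBS values stood above all WT_PBS values. Means were 28.3 ± 4.89 CPM in KO_PBS and 18.8 ± 1.21 CPM in WT_PBS (SD, n = 4 each), a log2FC of 0.59 (SE 0.14), or 1.51-fold.

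The other 3 genes showed overlapping KO_PBS and WT_PBS values. Slc30a1 (ENSMUSG00000037434, chromosome 1, 191906767 to 191913247, plus strand), which encodes the exporter of zinc at the cell surface, measured 9.77, 15.2, 12.3 and 17.95 CPM in the WT_PBS samples and 14.7, 14.1, 10.9 and 12.7 CPM in the KO_PBS samples. Its log2FC was -0.08 (SE 0.21). Slc30a2 (ENSMUSG00000028836, chromosome 4, 134343181 to 134354484, plus strand), which encodes a carrier of zinc into vesicles, measured 15.8, 16.2, 10.8 and 10.6 CPM in the WT_PBS samples and 8.24, 15.5, 10.9 and 8.23 CPM in the KO_PBS samples. Its log2FC was -0.31 (SE 0.33), less than its SE.

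Mtf1 (ENSMUSG00000028890, chromosome 4, 124802104 to 124849800, plus strand) was the steadiest of the 6 genes. It measured 25.2, 23.3, 23.2 and 22.6 CPM in the WT_PBS samples and 22.0, 22.0, 22.2 and 22.7 CPM in the KO_PBS samples. Means were 22.2 ± 0.330 CPM in KO_PBS and 23.6 ± 1.11 CPM in WT_PBS (SD, n = 4 each), a log2FC of -0.08 (SE 0.07). Scaled by library totals alone, its log2FC was 0.06, so no direction is given for it. The transcript level of Mtf1 says nothing of the metal binding of its protein, which was not measured.

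In KO_PBS vs WT_PBS, 3 of the 6 genes were differentially expressed genes (DEGs, adjusted P value under 0.05 over all genes in edgeR), all 3 higher, where 12.6% of all genes tested were DEGs, 7.43% higher and 5.12% lower. The median log2FC of the 6 was 0.26, against -0.01 over all genes. The choice of the genes used this contrast, so nothing is read from the count.

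**Figure D1:**
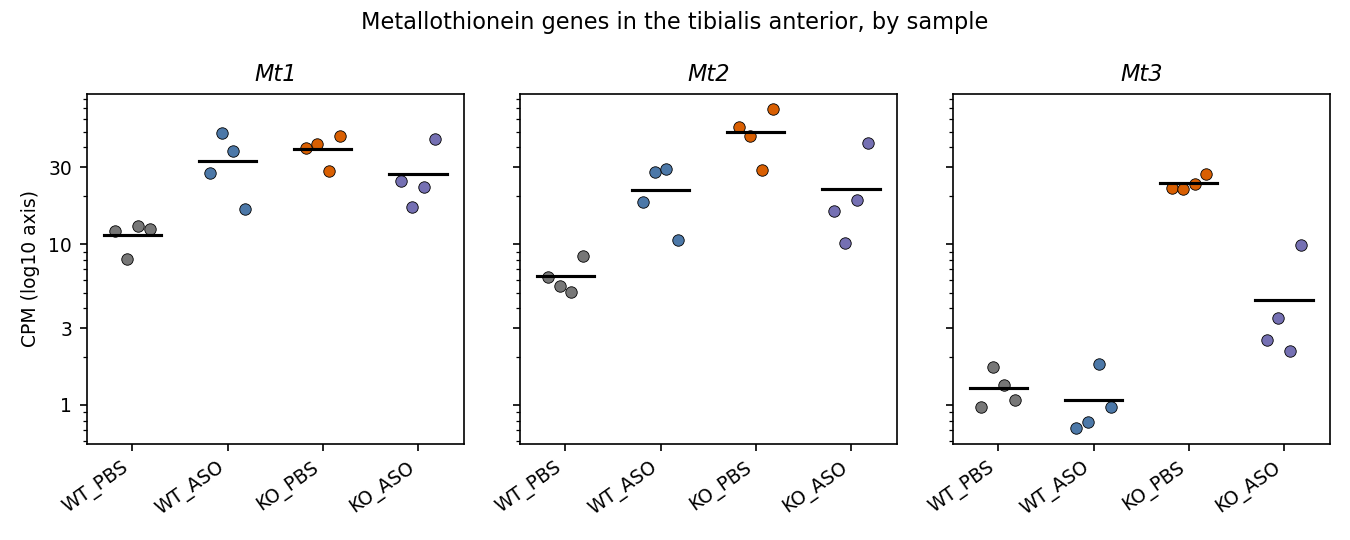
CPM of Mt1, Mt2 and Mt3 on a log10 axis, with 1 point per sample, 4 samples per group and the line at the group mean. The 4 WT_PBS samples held 8.12 to 13.0 CPM of Mt1 and 5.06 to 8.45 CPM of Mt2, below all samples of the other 3 groups, whereas Mt3 was 0.720 to 1.79 CPM in both WT groups.

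In Bin1mck-/- mice given ASO1, Mt1 and Mt2 lay between the WT_PBS and KO_PBS means, and Slc39a14 stood at the WT_PBS level. Mt1 measured 24.7, 17.1, 22.6 and 44.8 CPM in the KO_ASO samples, with a mean of 27.3 ± 12.1 CPM (SD, n = 4). KO_ASO replicate 4 lay within the KO_PBS range and the other KO_ASO samples below it. The log2FC of Mt1 against KO_PBS was -0.52 (SE 0.32), and without KO_ASO replicate 4 it was -0.87, no DEG call in either.

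Mt2 measured 16.2, 10.2, 18.8 and 42.4 CPM in the KO_ASO samples, with a mean of 21.9 ± 14.1 CPM (SD, n = 4). Again replicate 4 was inside the KO_PBS range while the other 3 samples were below it. The log2FC against KO_PBS was -1.19 (SE 0.41), which was no DEG call. Without KO_ASO replicate 4 it was -1.72 and became one, and with limma-voom it was -1.45 and became one. The KO_PBS values here were used in the choice of Mt2, so nothing is read from these calls.

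Slc39a14 measured 19.0, 17.2, 22.0 and 17.9 CPM in the KO_ASO samples, and no KO_ASO sample reached the lowest KO_PBS sample. Its mean was 19.1 ± 2.13 CPM (SD, n = 4), a log2FC of -0.57 (SE 0.14) against KO_PBS, or 0.673-fold. It was the 1 gene of the 6 that was a DEG in KO_ASO vs KO_PBS, where 3.64% of all genes were DEGs, 2.83% lower and 0.802% higher. The call was lost when any 1 of 5 samples was left out (KO_PBS replicates 1 and 4 and KO_ASO replicates 1, 2 and 4), with a log2FC of -0.57 to -0.47.

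For the remaining genes the KO_ASO values overlapped those of KO_PBS. Slc30a1 measured 14.4, 14.4, 12.9 and 12.0 CPM (log2FC 0.03, SE 0.21). Slc30a2 measured 17.9, 9.84, 11.5 and 7.77 CPM (log2FC 0.14, SE 0.33). Mtf1 measured 23.7, 26.1, 23.2 and 22.6 CPM, with 3 samples above the KO_PBS range, a log2FC of 0.10 (SE 0.07), which was 0.01 when scaled by library totals alone.

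Set against WT_PBS, KO_ASO still held more Mt1 and Mt2 in every sample. The lowest KO_ASO values, 17.1 CPM for Mt1 and 10.2 CPM for Mt2, lay above the highest WT_PBS values of 13.0 and 8.45 CPM. Log2FCs were 1.26 (SE 0.33) for Mt1 and 1.79 (SE 0.43) for Mt2. Neither was a DEG in edgeR, in a comparison with 6 DEGs, 0.0401% of all genes (0.0267% higher and 0.0134% lower), and 1229 genes at an unadjusted P under 0.05, Mt1 and Mt2 among them. DESeq2 called both, where it called 0.635% of all genes. The WT_PBS values here were used in the choice of both genes, so nothing is read from these calls. Slc39a14 differed from WT_PBS by 0.02 (SE 0.14), Mtf1 by 0.02 (SE 0.07), Slc30a1 by -0.04 (SE 0.21) and Slc30a2 by -0.17 (SE 0.33).

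In WT mice given ASO1 the values of Mt1 and Mt2 did not overlap those of WT_PBS, though neither gene was a DEG in edgeR, and the values of Slc39a14 did overlap. Mt1 measured 27.6, 49.4, 38.2 and 16.5 CPM in the WT_ASO samples, with a mean of 32.9 ± 14.1 CPM (SD, n = 4). All 4 stood above the WT_PBS samples, and the log2FC was 1.53 (SE 0.33), or 2.89-fold. Mt2 measured 18.2, 28.1, 29.4 and 10.6 CPM, with a mean of 21.6 ± 8.89 CPM (SD, n = 4). Its groups did not overlap either, and the log2FC was 1.77 (SE 0.43), or 3.41-fold.

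In this comparison 0 of the 6 genes were DEGs in edgeR, where 0.00668% of all genes, Dnm2 alone, were DEGs. Mt1 and Mt2 were 2 of 965 genes with an unadjusted P under 0.05, and DESeq2 called both, where it called 0.221% of all genes. These calls come from a contrast used in the choice of both genes, so nothing is read from them. WT_ASO replicate 4 held the least of both genes in its group. Slc39a14 measured 18.5, 25.5, 20.04 and 15.6 CPM in the WT_ASO samples, on both sides of the WT_PBS range (log2FC 0.08, SE 0.14).

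Slc30a1, the exporter gene that shares its regulator with the metallothioneins, measured 13.9, 14.8, 6.74 and 12.2 CPM in WT_ASO. Its log2FC was -0.22 (SE 0.21), and the groups overlapped. Slc30a2 measured 19.0, 21.4, 9.59 and 8.28 CPM (log2FC 0.13, SE 0.32) and Mtf1 23.8, 21.8, 27.1 and 22.7 CPM (log2FC 0.02, SE 0.07), both across the WT_PBS range.

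Between the ASO1 groups, KO_ASO vs WT_ASO, all 6 genes overlapped. Log2FCs were -0.27 (SE 0.32) for Mt1, 0.02 (SE 0.41) for Mt2, -0.06 (SE 0.14) for Slc39a14, 0.17 (SE 0.21) for Slc30a1, -0.30 (SE 0.33) for Slc30a2 and 0.00 (SE 0.07) for Mtf1. None of the 6 was a DEG in edgeR there (0.0735% of all genes were, 0.0401% higher and 0.0334% lower) and 0 had an unadjusted P under 0.05, and DESeq2 called 0 of them.

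The difference between the ASO1 log2FCs in the 2 genotypes had its largest value of the 6 for Mt2, and it is built from groups whose values were used in the choice of Mt2. ASO1 went with a log2FC of -1.19 in Bin1mck-/- mice and of 1.77 in WT mice, an interaction of -2.96 (SE 0.59). For Mt1 the interaction was -2.05 (SE 0.45), for Slc39a14 -0.66 (SE 0.20), and for Slc30a1, Slc30a2 and Mtf1 0.25 (SE 0.30), 0.01 (SE 0.46) and 0.09 (SE 0.11). Mt2 alone of the 6 was called in the interaction, from which nothing is read, with 0.575% of all genes called, 0.515% lower and 0.0602% higher. That call was lost when any 1 of 13 samples was left out (all but WT_ASO replicate 4, KO_PBS replicate 3 and KO_ASO replicate 4), with values of -3.13 to -2.71, and also with the replicate block, at -3.12. Without WT_ASO replicate 4 or without KO_ASO replicate 4, Mt1 was called as well, at -2.27 and -2.40.

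**Figure D2:**
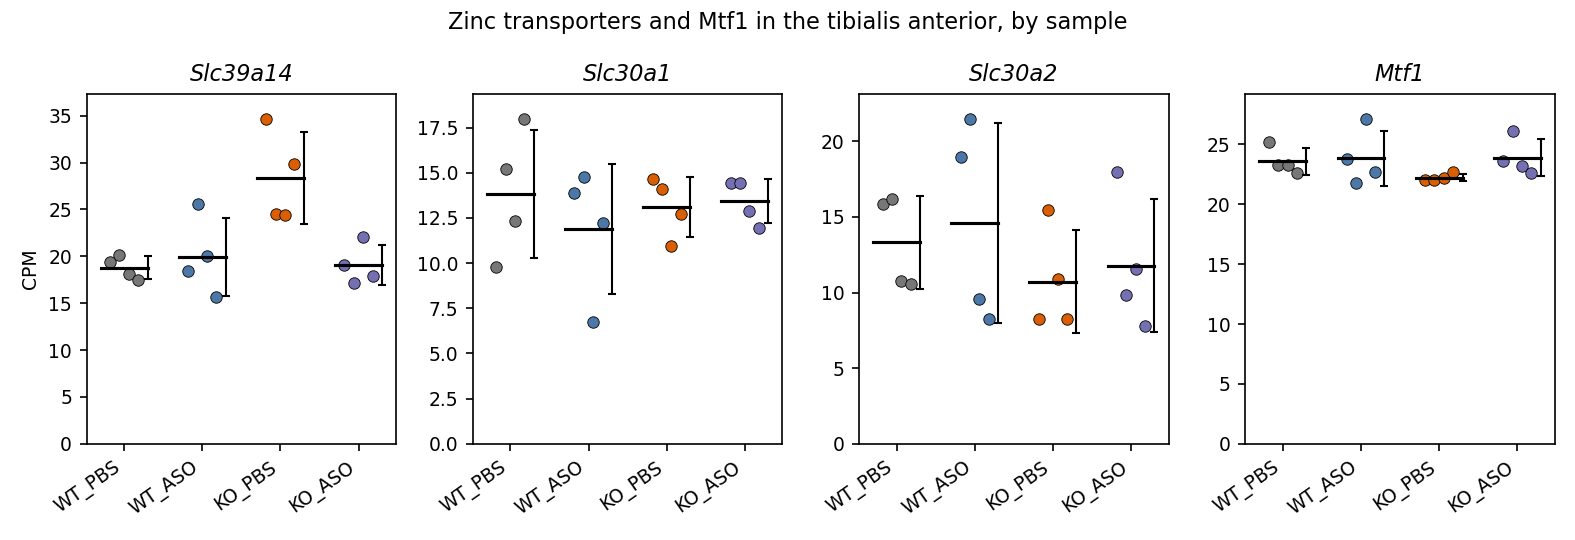
CPM of Slc39a14, Slc30a1, Slc30a2 and Mtf1 with 1 point per sample, 4 samples per group, the line at the mean and the bar showing the SD. Slc39a14 was 24.4 to 34.6 CPM in KO_PBS and 17.2 to 22.0 CPM in KO_ASO, whereas the groups of the other 3 genes overlapped.

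Per kb of annotated exon, Mt2, Mt1 and Slc30a2 held the first 3 places by mean in this order in all 4 groups, and the places below them varied. The order of Mt2 and Mt1 depends on the exon lengths used. In WT_PBS Mt2 stood at 10.7 ± 2.56 and Mt1 at 9.13 ± 1.78 CPM per kb (SD, n = 4 each), within their spread between samples, and Mt2 was above Mt1 in 3 of the 4 samples. Slc30a2 followed at 3.74 ± 0.865, Mtf1 at 2.65 ± 0.125, Slc30a1 at 2.63 ± 0.675 and Slc39a14 at 1.78 ± 0.114 CPM per kb, with Mtf1 and Slc30a1 inside each other's spread. In KO_PBS Mt2 stood at 84.5 ± 28.0 and Mt1 at 31.5 ± 6.28 CPM per kb, and Slc30a2, Slc39a14, Slc30a1 and Mtf1 lay between 2.496 and 3.01 CPM per kb, each inside the spread of the next.

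In WT_ASO Mt2 stood at 36.7 ± 15.1 and Mt1 at 26.4 ± 11.3 CPM per kb, and in KO_ASO at 37.2 ± 24.0 and 21.9 ± 9.69 CPM per kb (SD, n = 4 each). The spread between samples covered the difference of these means, but within each sample Mt2 per kb was above Mt1 per kb, in all 4 WT_ASO and all 4 KO_ASO samples, as in all 4 KO_PBS samples. The exons of Mt1 were taken as 1246 bases, the whole length of the gene, because annotated transcripts together cover it, and the level of Mt1 per kb is lower for that than over a spliced transcript. In plain CPM the mean of Mt1 was above that of Mt2 in WT_PBS (11.4 and 6.31), WT_ASO (32.9 and 21.6) and KO_ASO (27.3 and 21.9). In KO_PBS the mean of Mt1 was below that of Mt2 (39.2 and 49.7). The order per kb thus rests on the lengths used, and an order over spliced transcripts was not computed.

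Mt1 and Mt2 moved together across samples as well as groups. Pearson's r of their log2 CPM was 0.944 over the 16 samples and 0.895 for deviations from the group means, where samples share the library for both genes. With Mt3, r was 0.540 for Mt1 and 0.729 for Mt2, and 0.353 and 0.473 for deviations. The genes most like the mean of Mt1 and Mt2 over the 16 samples were Mvd (r 0.856), 6430548M08Rik (0.833), Adora1 (0.811), Spc25 (0.809) and Ankle1 (0.803). Those most like Slc30a1 were Lztfl1 (0.924) and Gtpbp10 (0.890), those most like Slc30a2 were Ddx20 (0.867) and Gm28651 (0.858), those most like Slc39a14 were Rab3gap2 (0.902) and Myo5a (0.895), and those most like Mtf1 were Lamtor2 (0.850) and Ptpn21 (0.845). These were the highest of 14960 genes, and the 4 groups set part of each r.

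Mt3, a metallothionein best known from the brain, rose from 1.19 CPM per kb, a lower level than that of Mt1 and Mt2. It measured 0.965, 1.71, 1.32 and 1.078 CPM in the WT_PBS samples and 22.4, 22.0, 23.8 and 27.3 CPM in the KO_PBS samples. The log2FC was 4.24 (SE 0.43, edgeR adjusted P = 2.22e-05), or 18.9-fold. In KO_ASO it measured 2.53, 3.48, 2.18 and 9.82 CPM, below every KO_PBS sample, and fell by 2.41 on the log2 scale (SE 0.39, edgeR adjusted P = 0.00329). Without KO_ASO replicate 4 the log2FC of Mt3 there was -3.13.

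In WT_ASO the Mt3 values of 0.720, 0.781, 1.79 and 0.972 CPM overlapped those of WT_PBS (log2FC -0.24, SE 0.46, edgeR adjusted P = 0.978), where Mt1 and Mt2 had log2FCs of 1.53 and 1.77. That contrast between the genes was not tested. KO_ASO held more Mt3 than WT_PBS in every sample (log2FC 1.83, SE 0.42), with an edgeR adjusted P of 0.216. Without KO_ASO replicate 4 the log2FC of Mt3 was 1.12, not called. DESeq2 called it with all 16 samples, at 1.83. Against WT_ASO it was 2.07 (SE 0.43, edgeR adjusted P = 0.0796), 1.35 without KO_ASO replicate 4, and called at 2.30 without KO_ASO replicate 3. DESeq2 called that comparison of Mt3 with all 16 samples, at 2.07. The interaction was -2.18 (SE 0.60, edgeR adjusted P = 0.128), and it was called at -2.89 without KO_ASO replicate 4. With all 16 samples DESeq2 called the interaction at -2.17 and limma-voom at -2.58.

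Of the 23 other metallothionein and zinc transporter genes listed, 21 were in the table and 17 passed the filter. In KO_PBS vs WT_PBS 3 of the 17 were DEGs, 2 higher and 1 lower, near the 12.6% of all genes that were DEGs (7.43% higher and 5.12% lower), and the median log2FC of the 17 was 0.14, against -0.01 over all genes. Mt3 and Slc39a6, a ZIP importer, were higher and Slc30a9, a mitochondrial zinc transporter, was lower. Slc39a6 measured 2.003 ± 0.451 CPM in WT_PBS and 3.14 ± 0.463 CPM in KO_PBS (SD, n = 4 each), which gave 0.66 as the log2FC (SE 0.21, edgeR adjusted P = 0.0466). Its call was lost when any 1 of 11 samples was left out (all but WT_PBS replicate 2, KO_PBS replicate 3 and KO_ASO replicates 1, 3 and 4), at a log2FC of 0.54 to 0.73 and an edgeR adjusted P of up to 0.145, and also without the filter. It overlaps Elp2 on the other strand, which had a mean of 885.2 counts against 61 to 143 for Slc39a6.

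Slc30a9, with the highest mean CPM of the other ZnT genes tested, measured 109 ± 7.40 CPM in WT_PBS and 90.9 ± 3.67 CPM in KO_PBS (SD, n = 4 each). Its log2FC was -0.27 (SE 0.08, edgeR adjusted P = 0.0406). The call was lost when any 1 of 8 samples was left out (WT_PBS replicates 1, 2 and 4, all 4 of KO_PBS and KO_ASO replicate 3), with an edgeR adjusted P of up to 0.105, and it was also lost under library totals alone, at a log2FC of -0.12, and without the filter. Slc39a13, a ZIP transporter of the Golgi, had a log2FC of 0.14 (SE 0.10, edgeR adjusted P = 0.391). Psmc3 overlaps this gene from the other strand, with a mean of 7873.7 counts against 649 to 1191 for Slc39a13. In KO_ASO vs KO_PBS Mt3 was the 1 DEG of the 17, where 3.64% of all genes were DEGs, and in each of the other 4 comparisons 0 were DEGs in edgeR. An unadjusted P under 0.05 was found for 0 of the 17 in WT_ASO vs WT_PBS, 2 in KO_ASO vs WT_PBS, 4 in KO_ASO vs WT_ASO and 3 in the interaction, against 6.45%, 8.22%, 15.1% and 12.7% of all genes. DESeq2 called 0, 1, 1 and 1 of the 17 there, against 0.221%, 0.635%, 2.82% and 2.57% of all genes.

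Mt4 and Slc30a3 were named after their values were seen, since both were taken out by the filter and had most of their reads in KO_PBS. Mt4, a metallothionein of squamous epithelia, had 1, 9, 5 and 12 counts in the KO_PBS samples and 0 in every WT_PBS sample. Over the groups this was at least 8.20-fold higher, taking 3 counts over the group as the limit that a count of 0 allows. KO_ASO held 1 count in all. Slc30a3, which loads zinc into vesicles of nerve endings, had 6, 30, 54 and 23 counts in KO_PBS against 4 counts over WT_PBS, a ratio of 25.7 (95% exact interval 9.78 to 96.1, counting error only). It had 4 counts over KO_ASO.

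**Figure D3:**
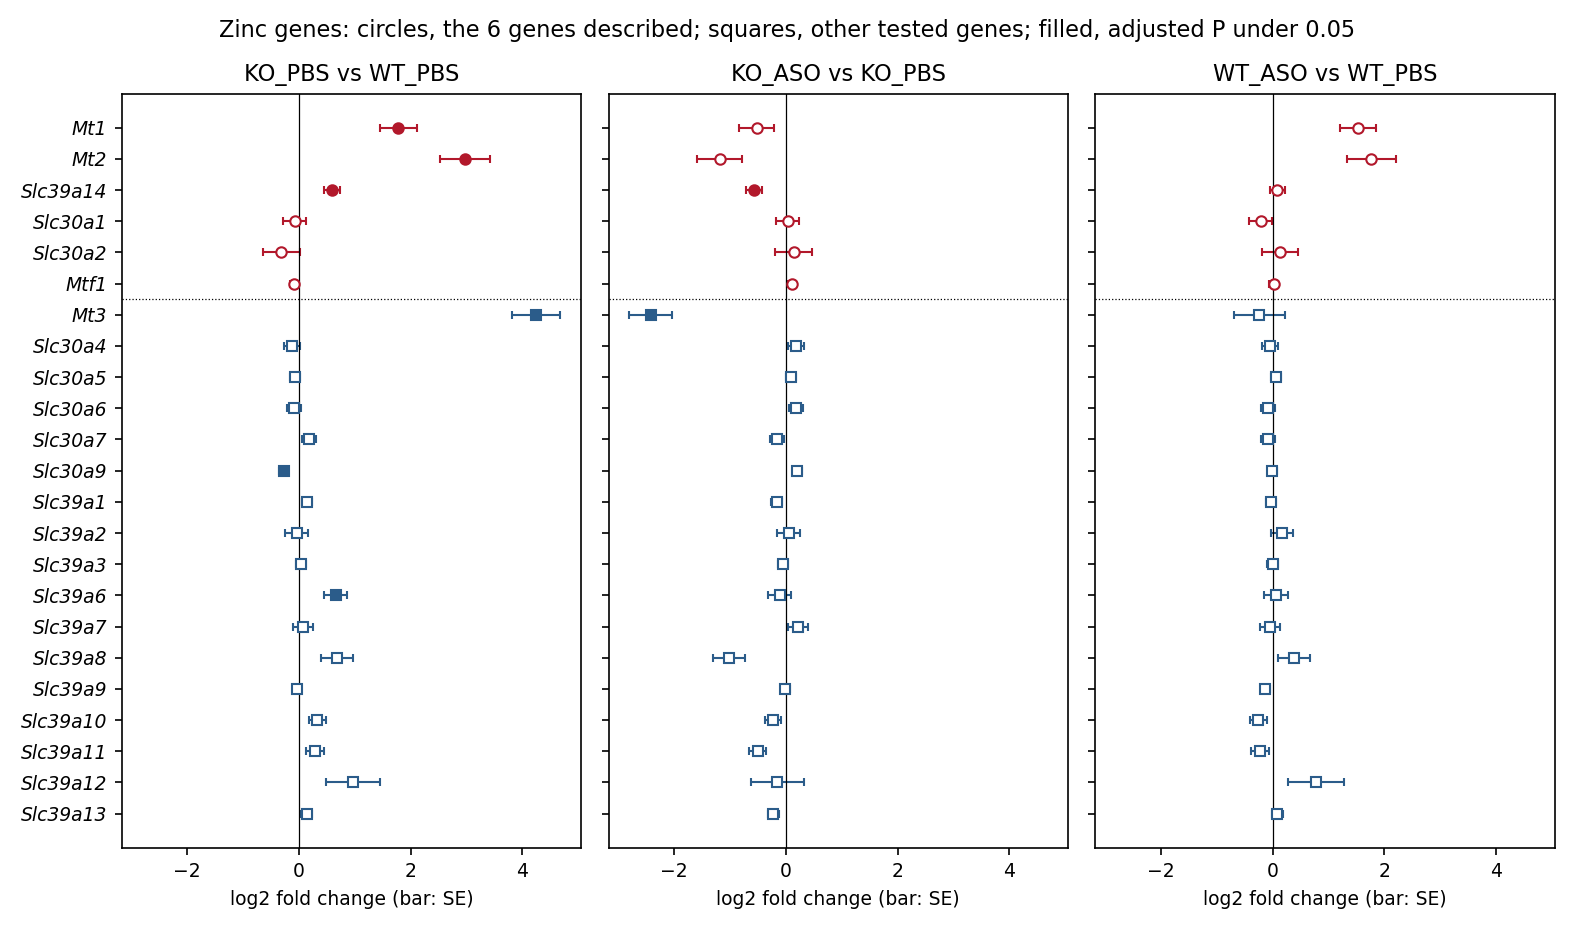
Log2FC with its SE for the 6 genes (circles) and the other 17 zinc genes tested (squares) in 3 comparisons, filled where the edgeR adjusted P was under 0.05. Mt1, Mt2 and Mt3 had log2FCs of 1.78, 2.97 and 4.24 in KO_PBS vs WT_PBS, and in WT_ASO vs WT_PBS Mt1 and Mt2 had 1.53 and 1.77 and Mt3 had -0.24.

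Genes that share known inducers with the metallothioneins were counted next, and at most 1 gene of each list was a DEG in edgeR in KO_PBS vs WT_PBS, where 12.6% of all genes were, so that counts of 1 in lists of 5 to 10 are near the background. Of 5 reported Mtf1 targets 1 was a DEG in KO_PBS vs WT_PBS, Cebpa, a factor of adipocytes and myeloid cells, at a log2FC of 1.22 (SE 0.26, edgeR adjusted P = 0.00577). Of 10 glucocorticoid targets 1 was a DEG, the kinase gene Sgk1, at -0.62 (SE 0.19, edgeR adjusted P = 0.0452). Of 9 Nrf2 targets tested 1 was a DEG, Srxn1, which repairs oxidised peroxiredoxins. It measured 28.9 ± 1.72 CPM in WT_PBS and 65.6 ± 6.60 CPM in KO_PBS (SD, n = 4 each), a log2FC of 1.18 (SE 0.14, edgeR adjusted P = 7.08e-05), and it fell by 0.82 in KO_ASO vs KO_PBS (SE 0.14, edgeR adjusted P = 0.00468).

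Of 8 genes of the Stat3 response 1 was a DEG in KO_PBS vs WT_PBS, Junb, at 1.46 (SE 0.46, edgeR adjusted P = 0.0491). An unadjusted P under 0.05 was found for 4 of the 8, and DESeq2 called 3 (Il6ra, Junb and Osmr) and limma-voom 2 (Il6ra and Junb), where 27.3% of all genes had such an unadjusted P, 16.9% were called by DESeq2 and 18.2% by limma-voom. Of 9 copper handling genes tested 1 was a DEG, the copper chaperone gene Atox1, at 0.35 (SE 0.09, edgeR adjusted P = 0.0196), and of 9 iron handling genes 0 were in edgeR, with 3 at an unadjusted P under 0.05 and 2 called by DESeq2 and 2 by limma-voom. Median log2FCs of these lists were -0.06, -0.13, -0.09, 0.61, -0.05 and -0.02 in the order given, against -0.01 over all genes. In WT_ASO vs WT_PBS 0 genes of the 6 lists were DEGs in edgeR, DESeq2 or limma-voom, and an unadjusted P under 0.05 was found for 2 Mtf1 targets, 5 of 10 glucocorticoid targets and 2 genes of the Stat3 response, where 6.45% of all genes had one. The median log2FC there was 0.40 for the glucocorticoid targets and 0.42 for the Stat3 response, against 0.00 over all genes. The call of Sgk1 was lost without any 1 of 9 samples (replicates 2 and 3 of KO_ASO, 1 and 4 of KO_PBS, 1 and 3 of WT_ASO, and 2 to 4 of WT_PBS), at -0.67 to -0.52. That of Junb was lost without any 1 of 10 (replicates 1 and 3 of KO_ASO, 1 to 3 of KO_PBS, 1 and 2 of WT_ASO, and 1, 2 and 4 of WT_PBS), at 1.22 to 1.52. That of Atox1 was lost without any 1 of 4 (WT_PBS replicates 2 and 4 and KO_PBS replicates 1 and 3), at 0.30 to 0.33. Over all 23 alternatives the log2FC of Junb ran from 1.22 to 2.17.

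Macrophage markers were read beside these levels. Summed CPM of 15 macrophage markers was 57.6 to 93.7 in WT_PBS, 58.6 to 131 in WT_ASO, 145 to 457 in KO_PBS and 63.7 to 95.2 in KO_ASO. All 15 had a positive log2FC in KO_PBS vs WT_PBS, 14 of them DEGs in edgeR, where 12.6% of all genes were. All 15 had a negative log2FC in KO_ASO vs KO_PBS, 10 of them DEGs, where 3.64% of all genes were. In WT_ASO vs WT_PBS 14 of the 15 had a positive log2FC, with a median of 0.44, and 0 were DEGs in edgeR or at an unadjusted P under 0.05. KO_PBS replicates 1 and 4, with the highest sums of 246 and 457, also held the most Mt2 and the most Slc39a14, while Mt1 was 42.0 CPM in replicate 2, with a sum of 149, and 39.4 CPM in replicate 1. The 3 KO_ASO samples other than replicate 4 had sums of 63.7 to 75.2, inside the WT_PBS range, with Mt1 and Mt2 above every WT_PBS sample. KO_ASO replicate 4, with the most Mt1 and Mt2 of its group, also had the highest sum of its group, 95.2. In WT_ASO, replicate 3 had the highest sum, 131, with the most Mt2 (29.4 CPM) and 38.2 CPM of Mt1, and replicate 2 had the lowest sum, 58.6, with 28.1 CPM of Mt2 and the most Mt1 (49.4 CPM).

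Summed CPM of 6 fibroblast markers was 763 to 1040 in WT_PBS, 336 to 1235 in WT_ASO, 1029 to 1764 in KO_PBS and 412 to 1373 in KO_ASO. All 6 had a positive log2FC in KO_PBS vs WT_PBS. Of these 3 were DEGs in edgeR, 4 in DESeq2 and 4 in limma-voom, against 12.6%, 16.9% and 18.2% of all genes. All 6 had a negative log2FC in KO_ASO vs KO_PBS (median -0.74). There 1 was a DEG in edgeR, 3 in DESeq2 and 4 in limma-voom, against 3.64%, 7.06% and 7.93% of all genes. In WT_ASO vs WT_PBS 5 of the 6 had a negative log2FC (median -0.16), and 0 were DEGs in edgeR. Summed CPM of 6 fat markers was 8.75 to 14.4 in WT_PBS, 8.30 to 58.6 in WT_ASO, 2.04 to 80.3 in KO_PBS and 3.15 to 27.7 in KO_ASO. All 6 had a positive log2FC in KO_PBS vs WT_PBS (median 1.46) and in WT_ASO vs WT_PBS (median 1.42), the comparisons in which Mt1 had 1.78 and 1.53, and 0 were DEGs in edgeR in either, with 1 and 0 at an unadjusted P under 0.05 and 0 called by DESeq2. KO_PBS replicate 4 had the highest fat sum, 80.3, and the most Mt1 of its group, 47.0 CPM. KO_PBS replicate 1 had a fat sum of 2.04, below every WT_PBS sample, with 39.4 CPM of Mt1. In WT_ASO, replicate 1 had the highest fat sum, 58.6, with 27.6 CPM of Mt1. Replicate 2 of WT_ASO had the lowest, 8.30, with the most Mt1, 49.4 CPM.

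Summed CPM of 5 red blood cell markers was 43.9 to 135 in WT_PBS, 43.2 to 256 in WT_ASO and 44.0 to 154 in KO_PBS, and the 256 belonged to WT_ASO replicate 3, which held the most Mt2 of its group. All 5 had a positive log2FC in KO_PBS vs WT_PBS and in WT_ASO vs WT_PBS, and 0 were DEGs in edgeR, at an unadjusted P under 0.05 or in DESeq2. The sum in KO_ASO replicate 4, the sample with the most Mt1 and Mt2 in its group, was 424, against 23.4 to 51.8 in the other KO_ASO samples, and its fibroblast and fat sums, 1373 and 27.7, were also the highest of its group. Of 6 endothelial markers 0 were DEGs in edgeR in KO_PBS vs WT_PBS, with 1 at an unadjusted P under 0.05 and 0 called by DESeq2. All 6 had a negative log2FC there (median -0.17) and in WT_ASO vs WT_PBS (median -0.27). In KO_ASO vs KO_PBS all 6 had a positive log2FC (median 0.29), and 0 were DEGs in edgeR in either of these comparisons. Of 10 muscle fibre markers 9 had a negative log2FC in KO_PBS vs WT_PBS, with a median of -0.40. Of the 10, 3 were DEGs in edgeR, 5 in DESeq2 and 6 in limma-voom, against 12.6%, 16.9% and 18.2% of all genes. The part of these cell types in the levels of the 6 genes was not tested. In bulk muscle, a difference in the number of cells of a type cannot be told apart from a difference in RNA per cell.

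**Figure D4:**
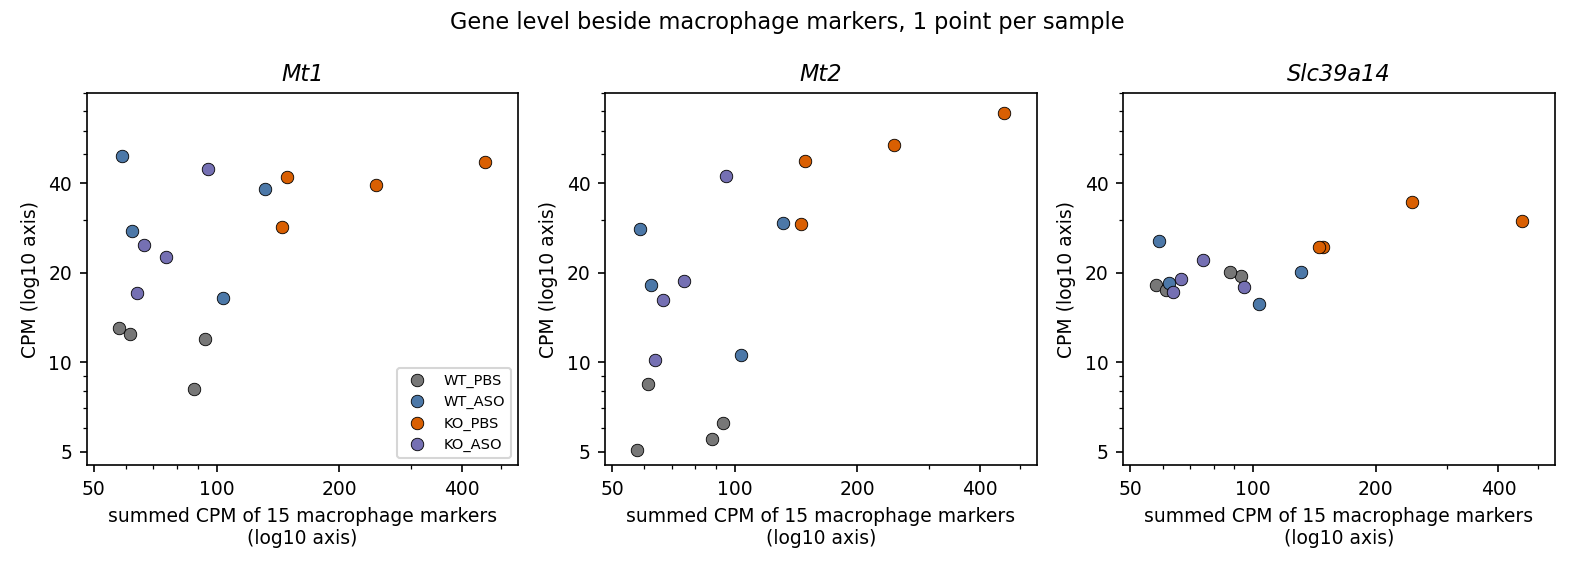
CPM of Mt1, Mt2 and Slc39a14 against the summed CPM of 15 macrophage markers, both on log10 axes, with 1 point per sample. KO_PBS samples lie at 145 to 457 on the horizontal axis, and KO_ASO samples lie at 63.7 to 95.2, beside WT_PBS, with Mt2 at 10.2 to 42.4 CPM.

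Counting across strands bears on some of these values. The opposite-strand gene Gm45774 overlaps Mt2 with a mean of 11.5 counts, against 148 to 2792 for Mt2, and 1110065P20Rik overlaps Mtf1 with a mean of 270.8 counts, against 625 to 921 for Mtf1. Slc30a1 overlaps 1700034H15Rik, which had a mean of 14.4 counts. For Mt1, Slc30a2 and Slc39a14 no overlapping gene was above a low floor of mean counts, and genes under that floor were not listed. Whether the counting used the strand is not given in the sources used here.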

How the data were processed

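Gene expression was measured by RNA-seq in 16 tibialis anterior samples. Per the labels, TRI Reagent was used for extraction and a stranded mRNA kit for the libraries. The deposited values are whole-number read counts for each Ensembl gene without normalization. STAR 2.5.3a, HTSeq 0.6.1p1, Bowtie2 2.2.8 and cutadapt 1.10 and the build GRCm38 (mm10) are given in the submitters' processing notes, with no roles. Symbols and positions were taken from GENCODE for GRCm38, which matched all 29730 identifiers.

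Counts were filtered with filterByExpr by group (14960 genes left), scaled by TMM and fitted with the robust quasi-likelihood model of edgeR 4.0.16 in R 4.3.3, with 1 mean per group over all 16 samples. P values were adjusted by Benjamini-Hochberg over all genes in each of 6 comparisons (threshold 0.05). The SE is the log2FC divided by the square root of F. CPM used TMM-scaled totals, and r used log2 CPM with a prior count of 2. Alternatives were other scalings, no filter, DESeq2 1.42.0, limma-voom (limma 3.58.1), compared groups only, a replicate block and leaving out each sample. The script was tested on simulated counts.

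The 6 genes and all lists were chosen with earlier results of these data known. Genes named were the 6, every other metallothionein or zinc transporter gene called in a comparison and the most abundant of each such family, at most 2 genes of each other list called by edgeR, Bin1 and Dnm2, and the genes with the highest r. Also named were genes of the Stat3 response called by other tools, genes overlapping a named gene, and DEGs near the metallothionein cluster. Mt4 and Slc30a3 were named after their values were seen. Marker lists covered muscle fibres, macrophages, red blood cells, fat, fibroblasts and endothelium. No 2 samples of a group agreed within sampling noise (lowest mean chi-square per gene 14.5).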

Additional observations from a re-analysis of the deposited data

Results flagged for a closer look

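Of 36 groups of 4 samples examined, 1 held a sample far from the others, where chance gives about 1 in 20. Mt3 measured 9.82 CPM in KO_ASO replicate 4 and 2.18 to 3.48 CPM in the other KO_ASO samples. The same sample had the highest Mt1 and Mt2 of its group, 44.8 and 42.4 CPM, and the highest summed CPM of its group for the red blood cell (424), macrophage (95.2), fibroblast (1373) and fat (27.7) markers. The part of these cell types was not tested.

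The interaction of Mt2, the difference between its log2FCs with ASO1 in the 2 genotypes, was -2.955 (SE 0.59) and was called by edgeR. It uses KO_PBS, WT_PBS and WT_ASO values that were known when Mt2 was chosen, so it is a description and no independent test. With ASO1 the log2FC was -1.19 in Bin1mck-/- mice and 1.77 in WT mice, neither of them called by edgeR, and the call of the interaction was lost when any 1 of 13 samples was left out. All 15 macrophage markers had a negative interaction (median -2.07), and edgeR called 2, against 0.575% of all genes. All 6 fat (median -1.93) and all 6 fibroblast markers (median -0.63) were negative, and all 6 endothelial markers were positive (median 0.56). Red blood cell and muscle fibre markers went both ways. The part of these cell types was not tested.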

How the results depend on the processing

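Mt3 in KO_PBS vs WT_PBS and in KO_ASO vs KO_PBS kept its call under all 23 alternatives, and no call changed sign. The calls of the 6 genes are counts beside the background and no support for their choice. Of the 6 genes, the number called in KO_ASO vs KO_PBS was 1, but 2 with limma-voom, 0 with the compared groups only and 0 to 1 when a sample was left out. DESeq2 called 2 of the 6 in WT_ASO vs WT_PBS and 2 in KO_ASO vs WT_PBS, where edgeR called 0. In the interaction the count was 1, but 0 without the filter, 0 with the replicate block, 2 with DESeq2, 2 with limma-voom and 0 to 2 when a sample was left out. Of the other zinc genes in KO_ASO vs KO_PBS 1 was called, but 2 with library totals only (Slc39a8 added), 2 without the filter (Slc30a3 added), 2 with DESeq2 and 2 with limma-voom (Slc39a11 added, 70 to 192 counts, overlapped by the opposite-strand gene Cog1 at 794.8 counts on average), and 1 to 2 when a sample was left out. In 13 of those fits Slc30a3 was added, since a group of 3 lets it pass the filter, and in 1 Slc39a8. They numbered 1 to 4 in KO_PBS vs WT_PBS when a sample was left out, against 3, with 1 left without KO_PBS replicate 2 or 4 (Mt3). Without the filter the 3 called there were Mt3, Mt4 and Slc30a3, in place of Mt3, Slc39a6 and Slc30a9. DESeq2 called 1 in KO_ASO vs WT_PBS, 1 in KO_ASO vs WT_ASO and 1 in the interaction, limma-voom called 1 in the interaction, and leaving out a sample gave 0 to 1 in KO_ASO vs WT_ASO and 0 to 1 in the interaction. The cause of these changes was not tested where none is given.

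Scaling by library totals alone moved the median log2FC of all genes to 0.14 in KO_PBS vs WT_PBS and 0.11 in KO_ASO vs WT_ASO, and raised the share of DEGs that were higher in KO_PBS vs WT_PBS from 59.2% to 88.2%. Over all genes, KO_PBS vs WT_PBS had 1878 DEGs in edgeR, 2522 in DESeq2 and 2723 in limma-voom. KO_ASO vs KO_PBS had 544, 1056 and 1186, WT_ASO vs WT_PBS 1, 33 and 1, KO_ASO vs WT_PBS 6, 95 and 5, KO_ASO vs WT_ASO 11, 422 and 2, and the interaction 86, 385 and 104. The replicate numbers paired the samples in no stated way, and 11 of 24 same-numbered pairs had a correlation of deviations over 0.1 (-0.078 to 0.435). No such values are given for differently numbered pairs, and whether samples with the same number shared a source was not tested. With the replicate block the counts were 2322, 752, 2, 8, 44 and 126 in the same order, and Slc39a6 in KO_PBS vs WT_PBS and Mt2 in the interaction lost their calls. With 4 samples a group an exact permutation test cannot go below 0.0286. Genes under the filter, such as Mt4 with 27 counts in KO_PBS, are limited by counting error.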

Other observations

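The genes around the metallothionein cluster were read after its values were seen. Within 250 kb on either side 17 other genes were in the table and 9 were tested. In KO_PBS vs WT_PBS 2 were DEGs in edgeR, Nup93 at a log2FC of 0.30 and Herpud1 at -0.52, where 12.6% of all genes were DEGs, and in KO_ASO vs KO_PBS 0 were. Gm45774, on the strand opposite to Mt2, had log2FCs of 1.58 in KO_PBS vs WT_PBS and 1.94 in WT_ASO vs WT_PBS, neither of them called.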
